A study of Mus musculus with 31 samples.

Results

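The postsynaptic scaffold genes examined here are Shank1, Shank2, Shank3, Dlg2, Dlg4, Dlgap1, Dlgap3, Homer1, Homer2 and Homer3. These 10 genes, of 48709 in the count tables, were taken as a fixed list of Shank, Dlg, Dlgap and Homer family members. They were chosen by name, with earlier results of these data known. A further 6 genes of the Dlg and Dlgap families are not in the list and are described after it. Their expression was followed in the basolateral amygdala (BLA) of 31 mice by QuantSeq, a 3′ RNA sequencing method that reads a tag near the end of each transcript. The mice were C57BL/6N animals that either carried a human CYFIP1 bacterial artificial chromosome (labelled CYFIP OE, here CYFIP1 OE, 15 mice) or did not (labelled Control, here WT, 16 mice). Each transgenic line descends from a founder made by pronuclear injection of the artificial chromosome, so insertion site and line cannot be told apart. Which cells express the transgene is not stated in the sources used here. There were 8 WT and 7 CYFIP1 OE animals in line 1, and 8 of each genotype in line 3. Ages were 59 to 61 days in WT and 59 to 77 days in CYFIP1 OE mice of line 1, and 58 to 60 days in WT and 58 to 64 days in CYFIP1 OE mice of line 3. Both sexes were present in every group, with 4 males and 4 females in each, except 3 males and 4 females in CYFIP1 OE of line 1. Each library came from 1-mm punches of the left and right BLA of 1 mouse, pooled.

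The postsynaptic density is the protein-rich disc under the membrane of an excitatory synapse. In it, PSD-95 family proteins (Dlg genes) hold glutamate receptors at the membrane, SAPAP proteins (Dlgap genes) bind the PSD-95 family from below, Shank proteins bind SAPAP, and Homer proteins tie Shank to metabotropic glutamate receptors and to inner calcium stores. CYFIP1 acts in the regulation of the actin cytoskeleton and of local translation, and the actin network of the dendritic spine is anchored to this scaffold. Loss of several of these scaffold proteins is known to disturb synaptic transmission and behavior.

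On GRCm38 (GENCODE), Shank1 lies on chromosome 7 at 44310253-44360572 and Shank2 on the same chromosome at 144001928-144424494, both on the plus strand. Shank3 lies on chromosome 15 at 89499623-89560261. Dlg2 spans chromosome 7, 90476672-92449247, and Dlg4 chromosome 11, 70016942-70047522. Dlgap1 spans chromosome 17, 69969073-70821413, and Dlgap3 chromosome 4, 127169204-127237022. Homer1 lies on chromosome 13 at 93299635-93405129, Homer2 on the minus strand of chromosome 7 at 81600481-81707527, and Homer3 on chromosome 8 at 70282827-70294361. Each value below is a gene-level sum over transcripts. For Homer1, with 12 annotated transcripts whose 3′ ends fall into 6 clusters over 1000 bases apart, that sum joins the long scaffold forms and the short, activity-induced form. Dlg2 overlaps 21 other genes that passed the filter on low counts, and 4 members overlap 1 such gene each. These are 1700008O03Rik for Shank1 and, on the opposite strand, Gm15609 for Shank3, 5031415H12Rik for Dlgap1 and Ddx49 for Homer3. The strand setting of the counting is not given in the sources used here, so reads of these genes may be shared.

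Promoter sequence (250 bases before to 50 after a transcription start) was available from RefSeq on GRCm38.p6 for 8 of the 10 genes, all but Shank1 and Shank2. The 4 shown are of genes that moved together across mice of both lines, as described below: Dlg4 with Homer1, and Dlgap1 with Homer2. The relation of Dlg4 with Homer1 was the looser one, and it did not pass the adjusted threshold within either line alone. Each window shown is that of the most 5′ listed start, printed 5′ to 3′ on the gene's strand. Capitals mark the letters TGACG (or their reverse complement), the core of the cAMP response element, in Dlg4 and Homer1, and the GC box GGGCGG (or its reverse complement) in Dlgap1 and Homer2.
Dlg4 (chr11:70016953-70017252, plus strand): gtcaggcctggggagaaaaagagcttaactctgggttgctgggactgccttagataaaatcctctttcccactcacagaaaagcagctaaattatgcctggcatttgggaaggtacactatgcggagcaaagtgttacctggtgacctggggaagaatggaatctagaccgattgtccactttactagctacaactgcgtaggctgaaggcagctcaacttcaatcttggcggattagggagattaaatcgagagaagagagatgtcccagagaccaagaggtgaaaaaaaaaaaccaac
Homer1 (chr13:93303507-93303806, plus strand): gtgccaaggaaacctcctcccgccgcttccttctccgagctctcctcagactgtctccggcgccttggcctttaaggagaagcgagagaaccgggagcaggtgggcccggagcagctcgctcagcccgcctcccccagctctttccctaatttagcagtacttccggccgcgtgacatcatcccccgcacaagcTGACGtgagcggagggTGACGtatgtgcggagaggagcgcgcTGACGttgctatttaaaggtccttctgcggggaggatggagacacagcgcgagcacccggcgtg
Dlgap1 (chr17:69968823-69969122, plus strand): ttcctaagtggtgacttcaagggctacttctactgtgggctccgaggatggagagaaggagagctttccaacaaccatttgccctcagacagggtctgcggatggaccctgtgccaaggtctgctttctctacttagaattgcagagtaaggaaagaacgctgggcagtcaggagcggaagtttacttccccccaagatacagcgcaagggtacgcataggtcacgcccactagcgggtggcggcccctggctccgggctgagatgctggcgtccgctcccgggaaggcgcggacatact
Homer2 (chr7:81706876-81707175, minus strand): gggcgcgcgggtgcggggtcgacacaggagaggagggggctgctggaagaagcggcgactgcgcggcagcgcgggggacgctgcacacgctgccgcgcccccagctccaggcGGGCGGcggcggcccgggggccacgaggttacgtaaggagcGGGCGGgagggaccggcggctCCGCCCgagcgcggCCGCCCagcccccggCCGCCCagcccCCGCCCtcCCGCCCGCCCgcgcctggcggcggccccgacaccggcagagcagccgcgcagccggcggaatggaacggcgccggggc

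The Homer1 window held 3 such cores and no GC box, and the Homer2 window held 8 GC boxes and no core. Dlg4 and Dlgap1 held neither. Of 32851 mouse promoter windows of the same 300 bases, 20.81% held at least 1 core and 35.66% at least 1 GC box on either strand. Shank3 held 4 GC boxes and Homer3 held 5, and Dlg2 and Dlgap3 held neither motif. None of the 8 windows held the full element TGACGTCA (1.79% of all windows), the TATA box TATAAA (13.62%) or the NRF1 core (0.9711%). The full element contains the core, and the GC box holds neither of them. GC content ran from 44.67% in Dlg2 to 82.33% in Homer2, against a median of 52.67% over all windows, with 63% in Homer1 and 46.33% in Dlg4. These matches describe letters in these windows and show no binding.

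Library totals ran from 5286708 to 8685308 assigned counts. Mouse Cyfip1 was at 33.5 ± 4.48 CPM (counts scaled to library size; SD, n = 16) in WT and 33 ± 3.66 (n = 15) in CYFIP1 OE mice, with a log2 difference of -0.02 (95% interval -0.18 to 0.14). The human transgene was not analysed here, so this does not check the genotype labels. The library of the CYFIP1 OE mouse X424.C4 (line 3) stood apart, with a connectivity Z-score to the other libraries of -4.74 against -1.18 for the next lowest. It had 0 reads for 33 genes that held at least 10 reads in every other mouse, 21 of them pseudogenes, and the other mice had 0 to 3 such genes each. The 4 comparisons of the 10 genes are therefore given with and without it. The first part of a mouse's title (X424, X426 and so on) names 9 groups of mice, and whether these are litters or cages is not stated. Of the 8 WT mice of line 1, 7 are of name group X426, which held no CYFIP1 OE mouse.

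The punches differed in the levels of cell type markers. Summed levels of 11 striatal projection neuron markers (of 12 listed) ran from 360.6 to 7112 CPM, and those of 10 BLA and cortical excitatory neuron markers from 56.87 to 1496 CPM. Of the latter list, Rspo2 and Emx1 were at 0 reads in at least 1 mouse, and no striatal marker was. In such bulk samples, fewer cells of a type and less RNA per cell cannot be told apart.

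The 10 genes differed widely in level in WT mice. QuantSeq yields about 1 tag per transcript, so CPM were not divided by gene length when genes were compared. Dlgap1 was the most abundant, with a mean of 504.8 CPM (SD 164.1, n = 16), followed by Dlg4 at 196 and Homer1 at 119.5 CPM. The mean level was 101.4 CPM for Dlg2, 100.3 for Shank1, 57.46 for Dlgap3, 47.79 for Homer2 and 24.48 for Shank2. Homer3 at 8.317 and Shank3 at 5.873 CPM were the lowest. Between neighbours in this order, the mean difference was larger than the larger of the 2 SDs for 5 of 9 pairs. It was smaller for Homer1 and Dlg2, Dlg2 and Shank1, Dlgap3 and Homer2, and Homer3 and Shank3. Shank3 rested on 17 to 88 reads a mouse and Homer3 on 11 to 273, so counting error weighs most on these 2 genes.

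**Figure D1:**
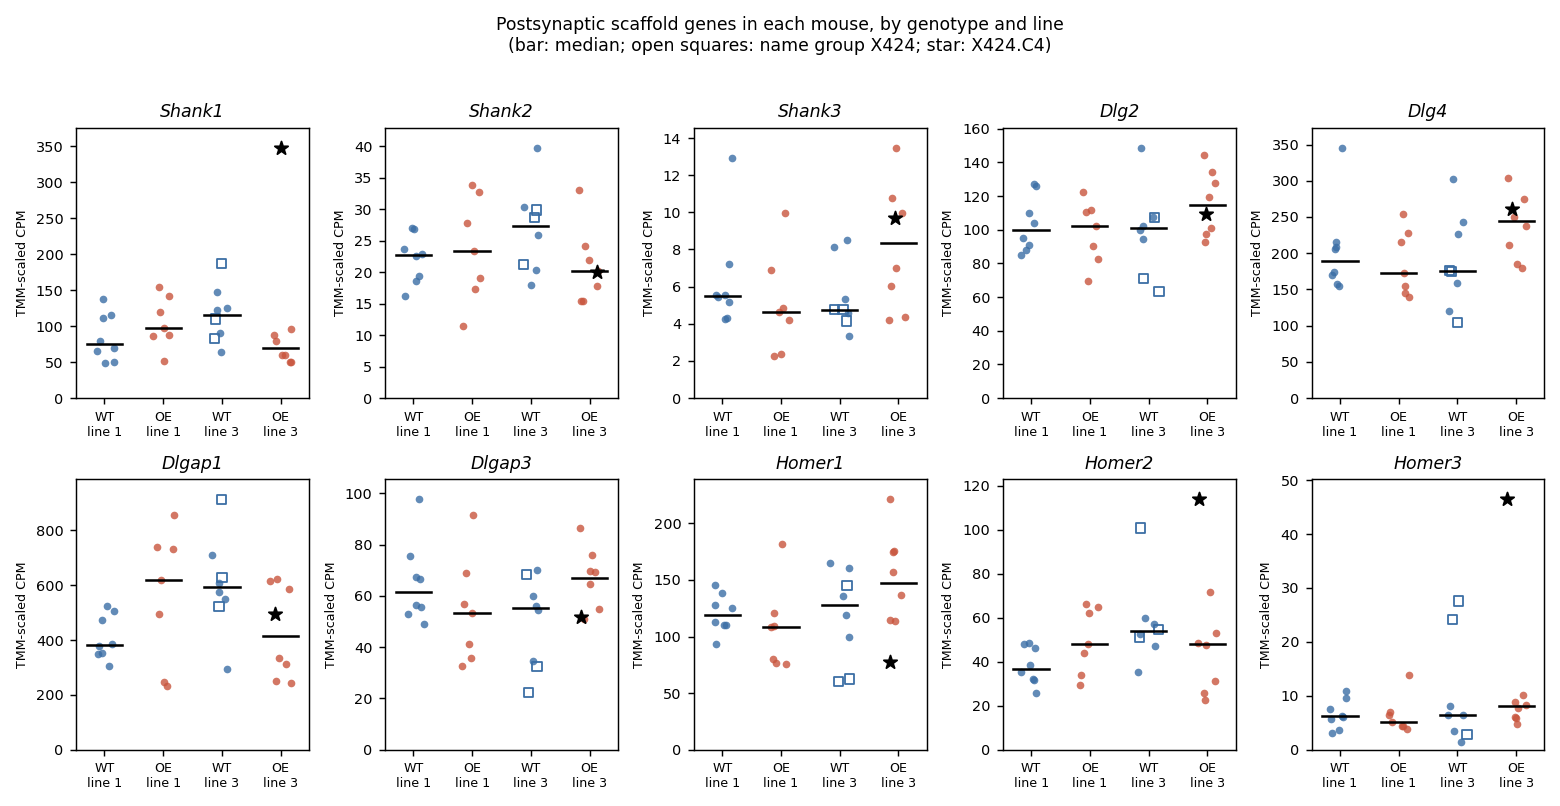
TMM-scaled CPM (vertical axes, from 0) of the 10 scaffold genes in each of 31 mice, by genotype and line, with bars at the group medians. The star, mouse X424.C4, lies above every other mouse for Shank1 (347.8 CPM), Homer2 (113.8) and Homer3 (46.41), and open squares mark the other 3 mice of its name group.

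Shank proteins are the central scaffold of the density and link SAPAP and Homer proteins. Shank1 ran from 49.2 to 137 CPM (median 74.49) in WT mice of line 1 and from 50.82 to 154.6 CPM (median 97.78) in CYFIP1 OE mice of that line. In line 3 it ran from 63.67 to 187.3 CPM (median 116.1) in WT mice and from 49.49 to 347.8 CPM (median 69.95) in CYFIP1 OE mice. The 4 groups overlapped. The top value was that of X424.C4, and the other 7 CYFIP1 OE mice of line 3 ended at 96.61 CPM (median 60.05), below the WT median of the line.

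Shank2 stayed between 11.4 and 39.78 CPM over all mice, with a median of 23.28 CPM in WT and 20.23 CPM in CYFIP1 OE mice. Shank3 ran from 4.255 to 12.9 CPM (median 5.491) in WT and from 2.253 to 9.987 CPM (median 4.658) in CYFIP1 OE mice of line 1. In line 3 it ran from 3.348 to 8.498 CPM (median 4.762) in WT and from 4.183 to 13.47 CPM (median 8.334) in CYFIP1 OE mice. CYFIP1 OE mice of line 3 had the highest of these 4 medians, or 6.992 CPM without X424.C4, and the groups overlapped.

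Dlg4 encodes PSD-95 and Dlg2 encodes PSD-93, the membrane-associated guanylate kinases that cluster NMDA receptors. Dlg2 was the least variable of the 10, with a coefficient of variation of 19.68% over all mice and a range of 63.15 to 148.7 CPM. Dlg4 ran from 104 to 345.4 CPM (median 175.3) in WT and from 139.9 to 304.3 CPM (median 215.6) in CYFIP1 OE mice. In CYFIP1 OE mice of line 3 it ran from 179 to 304.3 CPM (median 243.7), a median above those of the other 3 groups, which ran from 172 to 189.4 CPM.

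Dlgap1 and Dlgap3 encode SAPAP1 and SAPAP3, the latter known for its high expression in the striatum. Dlgap1 ran from 306.3 to 524.2 CPM (median 382.1) in WT and from 233.1 to 856.6 CPM (median 617.8) in CYFIP1 OE mice of line 1. In line 3 it ran from 296.1 to 912.8 CPM (median 591.9) in WT and from 245.1 to 621.2 CPM (median 414.9) in CYFIP1 OE mice. The CYFIP1 OE median was thus the higher one in line 1 and the lower one in line 3. Dlgap3 showed the reverse order. Its median was 61.63 CPM in WT (48.98 to 97.62) and 53.19 CPM in CYFIP1 OE mice (32.47 to 91.53) of line 1, and 55.15 CPM in WT (22.44 to 70.15) and 66.91 CPM in CYFIP1 OE mice (50.81 to 86.43) of line 3. All groups overlapped for both genes.

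Homer proteins join Shank to group I metabotropic glutamate receptors and to inositol trisphosphate receptors. Homer1 ran from 93.7 to 145.7 CPM (median 119.2) in WT and from 76.06 to 181.7 CPM (median 108) in CYFIP1 OE mice of line 1. In line 3 it ran from 60.36 to 165.2 CPM (median 127.7) in WT and from 77.23 to 221.1 CPM (median 147) in CYFIP1 OE mice. The lowest values over all mice were those of the WT mice X424.C2 (60.36 CPM) and X424.C1 (62.54 CPM). Homer2 ran from 25.79 to 48.33 CPM (median 36.79) in WT and from 29.58 to 66.29 CPM (median 48.08) in CYFIP1 OE mice of line 1. In line 3 it ran from 35.54 to 100.8 CPM (median 53.77) in WT and from 22.82 to 113.8 CPM (median 48.11) in CYFIP1 OE mice.

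Homer3, the member of the family best known from cerebellar Purkinje cells, was the most variable of the 10, with a coefficient of variation of 99.75%. Its median stayed between 5.144 and 8.022 CPM in the 4 groups. X424.C4 (46.41 CPM), X424.C2 (27.6 CPM) and X424.C1 (24.16 CPM) held the 3 highest values, and the next mouse, X433A.C1, was at 13.78 CPM. Without X424.C4 the coefficient of variation was 73.43% for Homer3 and 38.39% for Shank1, down from 56.46% over all mice for the latter. Without all 4 mice of name group X424 it was 41.42% for Homer3, below the 46.42% of Shank3.

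The first comparison asked whether the scaffold genes differ between CYFIP1 OE and WT mice, with sex and line in the model. None of the 10 passed an adjusted p of 0.05 in edgeR's quasi-likelihood test, nor in DESeq2 or limma-voom, and over all 17428 genes tested 0 passed in edgeR. None of the 10 had an unadjusted p below 0.05 or below 0.005 with any of the 3 tools, where 4.3% and 0.293% of all genes did in edgeR. Log2 differences (CYFIP1 OE minus WT) ran from -0.14 in Shank2 to 0.15 in Shank3, with a median of 0.07 against -0.01 over all genes. The 95% intervals bound what these mice could show. For Dlg2, Dlg4 and Shank2 they were -0.13 to 0.29, -0.17 to 0.39 and -0.43 to 0.15. For Dlgap1, Dlgap3, Homer1 and Homer2 they were -0.41 to 0.36, -0.25 to 0.40, -0.24 to 0.38 and -0.27 to 0.45. The widest were those of Shank1 (-0.42 to 0.52), Shank3 (-0.31 to 0.62) and Homer3 (-0.58 to 0.82).

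Leaving out X424.C4 moved 3 genes across 0. Shank1 went from 0.05 (SE 0.23) to -0.21 (SE 0.19), Homer3 from 0.12 (SE 0.34) to -0.24 (SE 0.30), and Homer2 from 0.09 (SE 0.18) to -0.01 (SE 0.17). The other 7 kept their sign, among them Homer1 at 0.07 with that mouse and 0.11 without it. Again none of the 10 had an unadjusted p below 0.05, where 3.72% of all genes did. In a fit limited to 18 mice, those of the 5 name groups with WT and CYFIP1 OE members, name group replaced line as a block and none of the 10 did either, where 4.55% of all genes did. In that fit Homer3 had the largest difference, 0.70 (95% interval -0.15 to 1.55, p = 0.0996 in edgeR). X424.C4 is the only CYFIP1 OE mouse of its name group, so leaving it out of this fit leaves out the group. In the 14 mice that remained, Homer3 was at 0.41 (95% interval -0.38 to 1.21) and Shank1, at 0.0013 with the group, was at -0.49 (95% interval -1.09 to 0.11), and none of the 10 had an unadjusted p below 0.05, where 4.95% of all genes did.

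**Figure D2:**
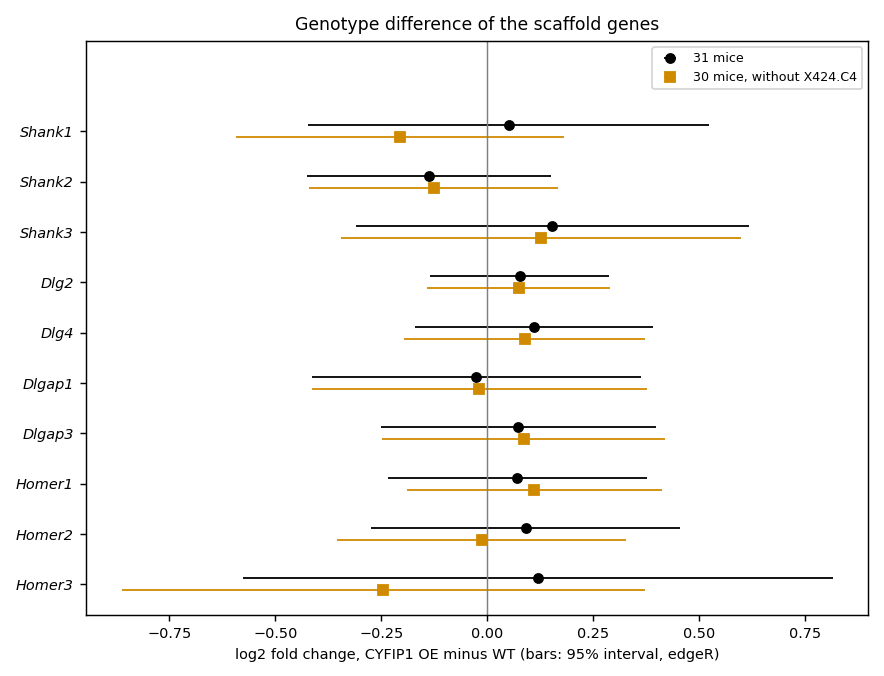
Log2 fold change of each scaffold gene, CYFIP1 OE minus WT (horizontal axis), with 95% intervals from edgeR, over all 31 mice (circles) and over 30 mice without X424.C4 (squares). Every interval spans 0, and the point for Shank1 lies at 0.05 with that mouse and at -0.21 without it.

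The second comparison asked whether the genotype difference differs between the 2 lines, by an interaction term. None of the 10 genes passed an adjusted p of 0.05 in edgeR (0% of all genes did), and the smallest adjusted p was 0.544, for Dlgap1. At an unadjusted p below 0.05, 3 of the 10 counted, against 8.1% of all genes. Dlgap1 had a log2 difference of the differences (line 3 minus line 1) of -0.93 (SE 0.35, unadjusted p = 0.0123 in edgeR). Dlgap3 was at 0.68 (SE 0.30, unadjusted p = 0.0308 in edgeR) and Shank3 at 0.90 (SE 0.43, unadjusted p = 0.0445 in edgeR). DESeq2 and limma-voom gave the same 3 genes below 0.05 and none past the adjusted threshold. With age in the model, or without the 4 mice aged 77 days (all CYFIP1 OE of line 1), only Dlgap1 remained below 0.05, at -0.95 in both fits (5.66% and 5.36% of all genes did). With 5 surrogate variables (unknown sources of variation estimated from the counts) Dlgap1 turned to 0.22 (95% interval -0.05 to 0.50), and none of the 10 was below 0.05, where 3.21% of all genes were.

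Without X424.C4, 4 of the 10 fell below an unadjusted p of 0.05, against 10.4% of all genes. Shank1 moved from -0.51 (SE 0.46) to -1.07 (SE 0.33, unadjusted p = 0.00285, adjusted p = 0.234 in edgeR). Homer2 moved from -0.56 (SE 0.35) to -0.79 (SE 0.31, unadjusted p = 0.0151 in edgeR). Dlgap1 stayed at -0.94 and Dlgap3 was at 0.72, while Shank3 at 0.88 no longer passed (unadjusted p = 0.0555 in edgeR). Without all 4 mice of name group X424, 2 of the 10 were below 0.05, Shank1 (-0.99) and Dlgap1 (-0.82), against 1402 of all 17353 genes tested.

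The values within each line show what lies behind these terms. In line 1 (15 mice) none of the 10 had an unadjusted p below 0.05 (5.53% of all genes did), with Dlgap1 at 0.44 (95% interval -0.04 to 0.91) and Homer2 at 0.38 (95% interval -0.0018 to 0.75). In line 3 (16 mice) none did either (6.42% of all genes), with Dlgap1 at -0.47 (95% interval -0.95 to 0.01), Shank3 at 0.56 (95% interval -0.01 to 1.12) and Shank1 at -0.22 (95% interval -0.97 to 0.53). Without X424.C4, 3 of the 10 did in line 3, against 8.51% of all genes. Shank1 was lower in CYFIP1 OE mice by -0.75 (95% interval -1.16 to -0.34), Dlgap1 by -0.51 (-1.00 to -0.02), and Dlgap3 was higher by 0.43 (0.0037 to 0.86). Their adjusted p values in edgeR were 0.505, 0.5675 and 0.585. Without the whole of name group X424, Shank1 in line 3 was at -0.66 (95% interval -1.09 to -0.23). In that fit 1 of the 10 had an unadjusted p below 0.05, against 1153 of all 17145 genes tested.

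**Figure D3:**
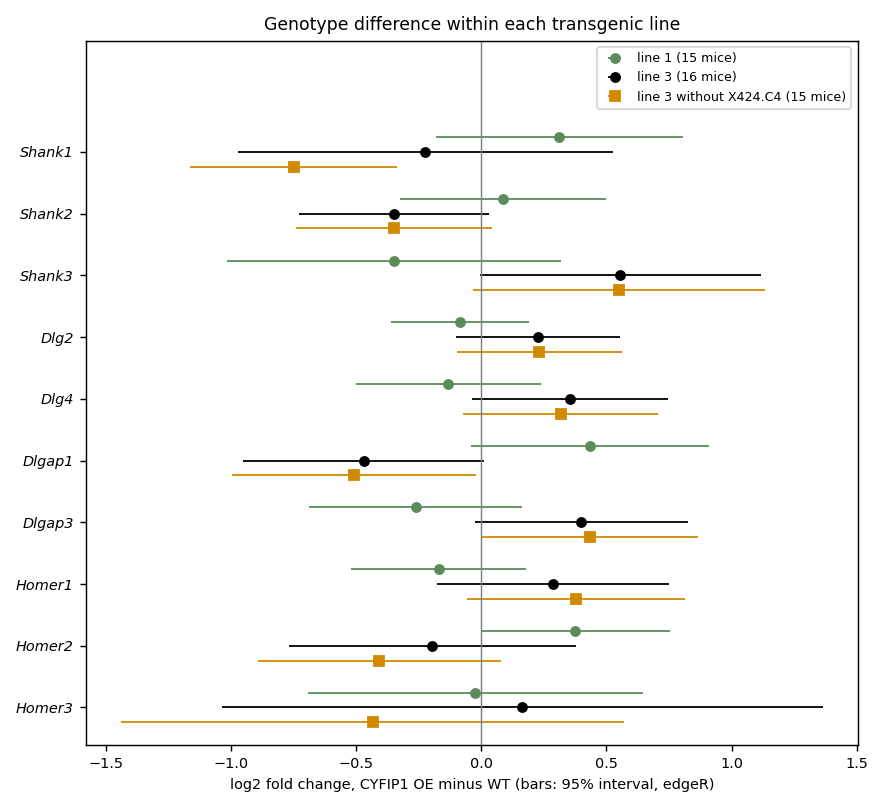
Log2 fold change of each scaffold gene, CYFIP1 OE minus WT (horizontal axis), with 95% intervals from edgeR, in line 1, in line 3, and in line 3 without X424.C4. Shank1, Shank2, Dlgap1 and Homer2 lie right of 0 in line 1 and left of 0 in line 3, and the other 6 genes the other way round. Without X424.C4, Homer3 also lies left of 0 in line 3, as it does in line 1. No adjusted p was below 0.05.

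Marker levels moved with the same 4 groups. The striatal projection neuron score (mean standardized log2 CPM of 11 markers) averaged 0.47 in WT and -0.33 in CYFIP1 OE mice of line 1. In line 3 it averaged -0.39 in WT and 0.21 in CYFIP1 OE mice. Without name group X424 these 2 were 0.16 and 0.61. Summed striatal levels ran from 3531 to 5157 CPM in WT of line 1, 908.5 to 5722 in CYFIP1 OE of line 1, 360.6 to 6353 in WT of line 3 and 370.7 to 7112 in CYFIP1 OE of line 3. The excitatory neuron score of 10 markers averaged -0.35 and 0.01 in WT and CYFIP1 OE of line 1, and 0.39 and -0.04 in line 3. Without name group X424 the latter 2 were 0.43 and -0.16. Summed levels of the 10 markers ran from 56.87 to 651.5 CPM and 102 to 772.8 CPM in line 1, and from 312.9 to 881.2 CPM and 89.55 to 1496 CPM in line 3. The part of these markers in the differences between lines was not tested. In line 1, where only name group X429 held both genotypes (1 mouse of each), genotype and name group cannot be told apart.

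The third comparison was between lines, whose mice differ in transgene insertion and in name group. None of the 10 genes passed an adjusted p of 0.05 (0% of all genes did), and 1 had an unadjusted p below 0.05, against 3.31% of all genes. Homer3 was higher in line 3 by 0.73 (95% interval 0.03 to 1.44, p = 0.0407 in edgeR). It was at 0.42 (95% interval -0.19 to 1.03) without X424.C4, where none of the 10 counted against 3.31% of all genes, and at -0.05 without name group X424. Without that name group 1 of the 10 counted, higher in line 3, against 949 of all 17353 genes tested. Over all mice, Homer2 was higher in line 3 by 0.32 (95% interval -0.05 to 0.68), and the other 8 differences lay between -0.07 and 0.22.

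Among WT mice alone, 2 of the 10 had an unadjusted p below 0.05, against 6.07% of all genes. Dlgap1 was higher in line 3 by 0.55 (SE 0.17, unadjusted p = 0.00357 in edgeR) and Homer2 by 0.58 (SE 0.18, unadjusted p = 0.0033 in edgeR), each with an adjusted p of 0.721. Without name group X424 these were 0.42 and 0.40, with unadjusted p values of 0.0282 and 0.0266 in edgeR. In that fit 2 of the 10 were below 0.05, against 900 of all 17843 genes tested. Among CYFIP1 OE mice alone, 1 of the 10 counted, against 5.35% of all genes, with Dlg4 higher in line 3 by 0.36 (SE 0.16). Without X424.C4, 3 of the 10 did, against 7.85% of all genes. Shank1 was then at -0.59 (SE 0.21), Homer1 at 0.53 (SE 0.20) and Dlg4 at 0.33 (SE 0.16).

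The fourth comparison was between sexes. None of the 10 passed an adjusted p of 0.05, against 0.0631% of all genes (11 genes), and none had an unadjusted p below 0.05, against 4.62%. Log2 differences (male minus female) ran from -0.19 in Homer1 (95% interval -0.50 to 0.11) to 0.31 in Homer3 (95% interval -0.38 to 1.01). DESeq2 and limma-voom also gave none below 0.05. Without X424.C4, Homer3 was at -0.04 (95% interval -0.66 to 0.57), the 10 differences ran from -0.15 in Homer1 to 0.10 in Homer2, and none had an unadjusted p below 0.05, against 4.59% of all genes.

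The mouse X424.C4 was set beside the 7 other CYFIP1 OE mice of line 3. It lay outside their range for 4 of the 10 genes, where the share over all genes was not computed. Its Shank1 level of 347.8 CPM was 5.79 times their median of 60.05 CPM, and its Homer3 level of 46.41 CPM was 5.94 times their median of 7.809 CPM. Homer2 at 113.8 CPM was 2.39 times their median of 47.59 CPM. Homer1 at 77.23 CPM was below all 7, at 0.491 times their median of 157.4 CPM. Shank2, Shank3, Dlg2, Dlg4, Dlgap1 and Dlgap3 lay within their range, so the scaffold genes did not move as a block in this mouse.

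The scaling weighs on these values. TMM, the normalization used here, raised CPM of X424.C4 by a factor of 1.343 over CPM of the library total, while the factor ran from 0.8781 to 1.231 in the other mice. On CPM of the total, Shank1 (258.9) and Homer3 (34.54) of X424.C4 still lay above all 30 other mice. Homer2 (84.69) lay within them, and Homer1 (57.49) below all of them. Against the 3 WT mice of its own name group, X424.C4 lay outside the range for 8 of the 10 genes. A range of only 3 mice is narrow, and the share over all genes was not computed here either.

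The other mice of name group X424 did not share one pattern. X424.C2 held 187.3 CPM of Shank1 and 100.8 CPM of Homer2, the second highest values of both genes, and 60.36 CPM of Homer1, the lowest. X424.C1 held 83.04 CPM of Shank1 and 62.54 CPM of Homer1, and X424.C3 held 110 and 144.8 CPM. Striatal markers summed to 370.7 CPM in X424.C4, 360.6 in X424.C2 and 1159 in X424.C1, and to 3600 CPM in X424.C3. Choroid plexus markers (8 genes, a list added after the values were seen) summed to 4806 CPM in X424.C4, 8511 in X424.C2, 6304 in X424.C1 and 29.64 CPM in X424.C3. The hippocampal neuron score, of a list also added later, was highest in X424.C2 (2.158) and X424.C4 (1.834), with X436B.C3 next at 0.756. In X424.C1 it was 0.33 and in X424.C3 0.032. The part of these markers in the levels of the scaffold genes was not tested.

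Levels of the 10 genes were then correlated with each other across mice (log2 CPM, two-sided permutation tests, Benjamini-Hochberg adjusted over 45 pairs). The resamples shuffled all mice freely, without regard to name group or line. Permutation p values, here and with the marker scores below, may therefore be too small if mice of a name group resemble each other. Most of the genes fell into sets with positive coefficients within them and negative ones between them, not all of which passed an adjusted p of 0.05. Over 31 mice, 20 of 45 pairs had an adjusted permutation p below 0.05, and over the 30 mice without X424.C4, 26 did. The same count was not made over pairs of other genes, so it does not set these 10 genes apart. Values in the next 2 paragraphs are over those 30 mice.

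In the first set, Dlgap1 and Homer2 had r = 0.869 (rho = 0.840), Shank1 and Dlgap1 r = 0.857 (rho = 0.816) and Shank1 and Homer2 r = 0.790 (rho = 0.741), each with a permutation p of 1e-05, the smallest that 100000 resamples can give. Shank2 joined them more loosely, with r = 0.665 to Dlgap1 (adjusted permutation p = 0.0004) and r = 0.481 to Shank1 (adjusted permutation p = 0.0222). In the second set, Dlg2 and Dlg4 had r = 0.822 (rho = 0.834), Dlg2 and Homer1 r = 0.741 (rho = 0.689), and Dlgap3 had r = 0.713 to Dlg2, 0.678 to Dlg4 and 0.705 to Homer1. Their adjusted permutation p values ran from 9e-05 to 0.000225. Dlg4 and Homer1 were more loosely related, with r = 0.603 (rho = 0.601, adjusted permutation p = 0.001845). With the 2 most extreme mice of the first gene of each pair left out, these coefficients ran from 0.413 (Shank1 with Shank2) to 0.877 (Dlgap1 with Homer2).

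Across the sets the sign turned. Shank2 and Dlg4 had r = -0.563 (rho = -0.643, adjusted permutation p = 0.00515), Dlgap3 and Homer2 r = -0.558 (rho = -0.512, adjusted permutation p = 0.00517), and Dlgap1 and Dlgap3, SAPAP proteins of the same family, r = -0.488 (rho = -0.413, adjusted permutation p = 0.018). Within families, Shank1 and Shank3 had r = -0.462, Shank2 and Shank3 r = -0.456, and Homer1 and Homer3 r = -0.519. The last pair fell to r = -0.228 once the 2 mice with the most extreme Homer1 levels, X424.C1 and X424.C2, were left out, so it rests on those mice. Not every pair across the sets passed, as with Homer1 and Homer2 (r = -0.363, adjusted permutation p = 0.081).

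**Figure D4:**
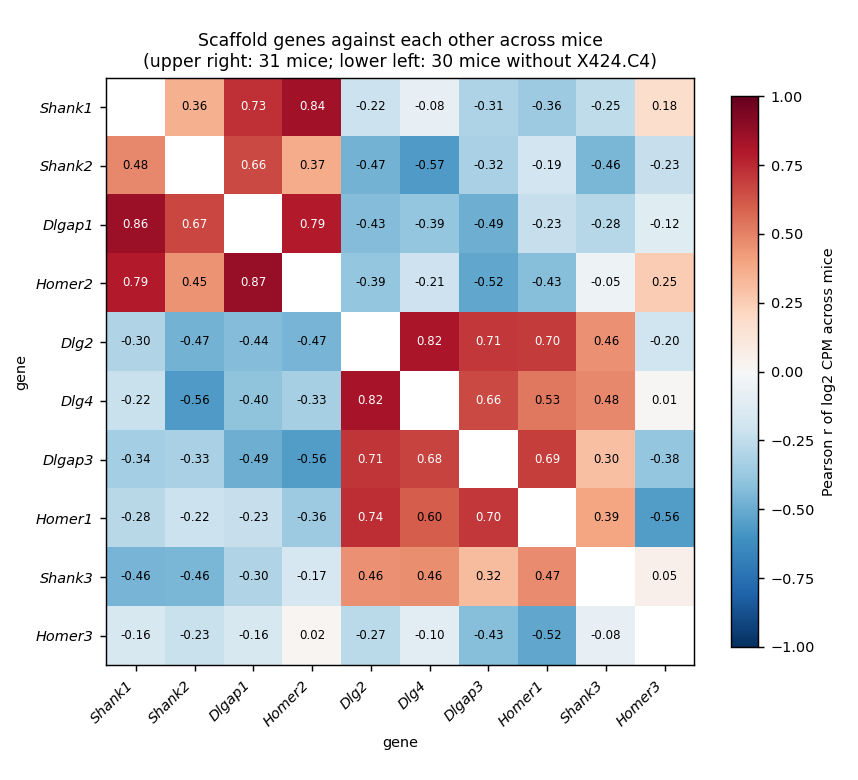
Pearson r of log2 CPM across mice for each pair of the 10 scaffold genes, over 31 mice (upper right) and over 30 mice without X424.C4 (lower left). Shank1, Shank2, Dlgap1 and Homer2 form one positive block, Dlg2, Dlg4, Dlgap3 and Homer1 another, and values between the blocks are below 0.

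The pattern was recomputed within lines. For Dlgap1 and Homer2, r was 0.868 in line 1 (15 mice) and 0.765 in line 3 (16 mice). It was 0.799 and 0.693 for Shank1 and Dlgap1, and 0.797 and 0.824 for Dlg2 and Dlg4. For Dlg4 and Homer1 it was 0.369 and 0.591, with adjusted permutation p values of 0.331 and 0.0523. Fewer pairs passed within lines, 4 of 45 in line 1 and 13 of 45 in line 3. Homer1 and Homer2 had r = -0.426 over all mice, but 0.080 in line 1 and -0.732 in line 3. On residuals after sex, line and genotype, 21 of 45 pairs passed.

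The same levels were set against 5 marker scores (50 pairs). Over 30 mice without X424.C4, 23 pairs had an adjusted permutation p below 0.05, and over all 31 mice 21 did. How many other genes would pass with these scores was not counted. Shank1 (r = 0.814, rho = 0.811), Dlgap1 (r = 0.83, rho = 0.852) and Homer2 (r = 0.683, rho = 0.729) rose with the BLA and cortical excitatory neuron score. The largest of the adjusted permutation p values of these 3 was 0.0002. Without the 2 mice with the most extreme scores, X426.B2 and X426.B6, r was 0.780, 0.869 and 0.701. The same 3 genes fell with the striatal score, with r = -0.672, -0.705 and -0.741, and with the oligodendrocyte and myelin score, with r = -0.690, -0.669 and -0.536.

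The other set rose with the striatal score. Dlgap3 had r = 0.802 (rho = 0.726), Homer1 r = 0.733 (rho = 0.594), Dlg2 r = 0.705 (rho = 0.695) and Dlg4 r = 0.602 (rho = 0.677), with adjusted permutation p values of 0.0001 to 0.00132. Leaving out X424.C2 and X429.A1, whose scores were the most extreme, r was 0.844, 0.630, 0.704 and 0.707. None of these 4 had an adjusted permutation p below 0.05 with the excitatory, pan-neuronal or myelin scores. Within line 1 and line 3, Dlgap3 had r = 0.802 and 0.690 with the striatal score, and Dlgap1 r = 0.812 and 0.866 with the excitatory score. The scores are themselves related, with r = -0.419 between striatal and excitatory scores and 0.838 between excitatory and pan-neuronal scores over 31 mice. Over the same mice the oligodendrocyte and myelin score had r = -0.757 with the excitatory, -0.845 with the pan-neuronal and 0.355 with the striatal score.

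Homer3 stood apart. Over 31 mice it had r = -0.514 with the striatal score (adjusted permutation p = 0.0117), but rho = -0.028 and r = -0.073 without X424.C2 and X424.C4, so that relation rests on those mice. With the immediate early gene score, Homer3 had r = -0.598 over all 31 mice and -0.427 without X424.C4, and Homer1, whose short form is itself an immediate early transcript, had r = 0.428 over 31 mice (adjusted permutation p = 0.0393). Leaving out X424.C4 and X433A.C1, the mice of most extreme score, r of Homer1 was 0.258 and that of Homer3 -0.356.

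**Figure D5:**
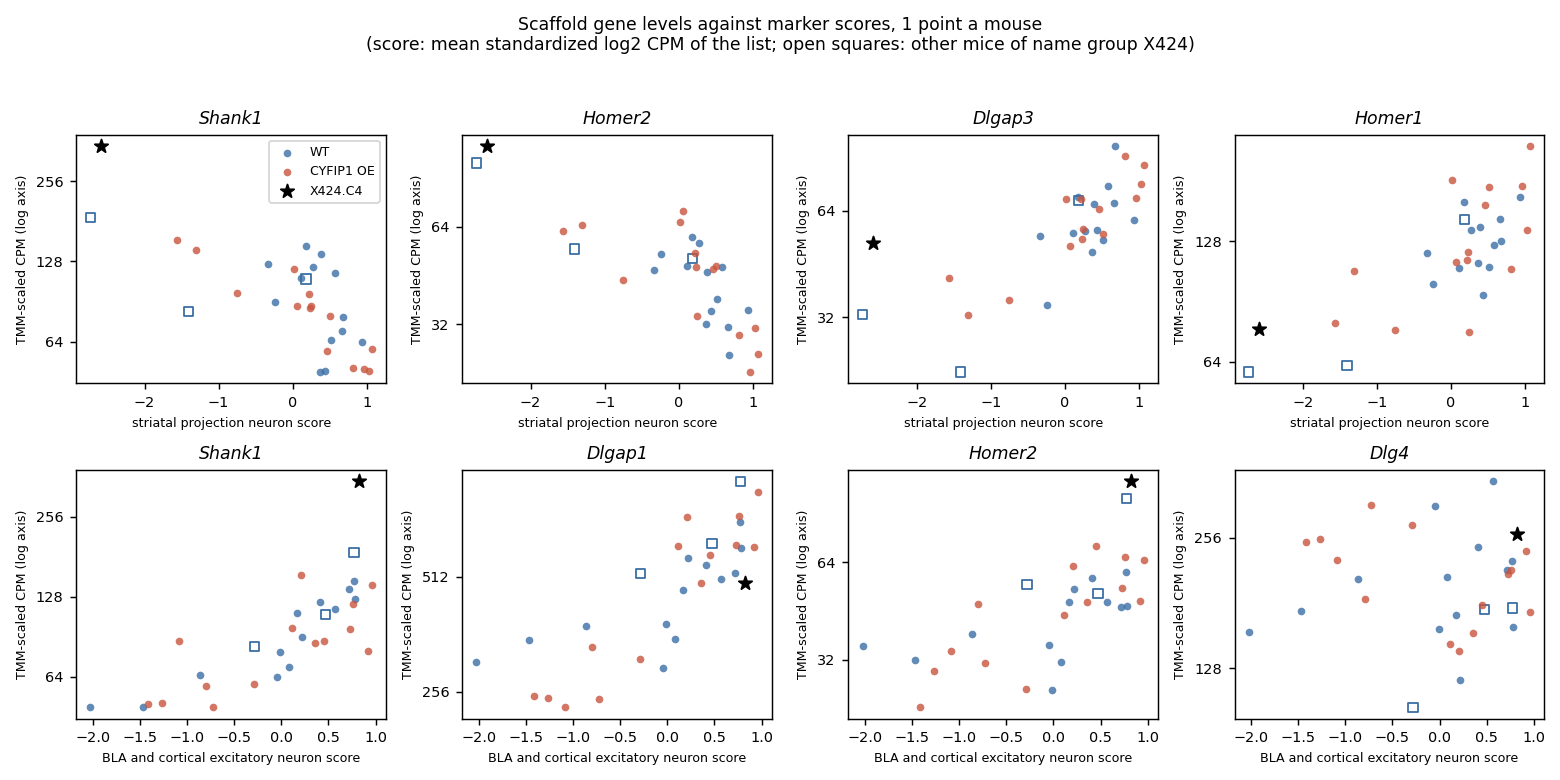
TMM-scaled CPM (vertical axes, log scale) against the striatal projection neuron score (upper row) and the BLA and cortical excitatory neuron score (lower row), 1 point a mouse. Shank1 and Homer2 fall and Dlgap3 and Homer1 rise along the striatal score, Shank1, Dlgap1 and Homer2 rise along the excitatory score, and Dlg4 (r = -0.012 over 31 mice) shows no such slope along it.

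For each of the 10 genes, the gene whose level was most like it over the 30 mice was taken from 8449 genes with a mean of at least 10 CPM. The measure was Pearson r of log2 CPM, given as a description. For Dlgap1 it was Olfm1 (r = 0.965), which encodes a secreted olfactomedin, and for Shank1 the adhesion molecule gene Chl1 (0.909). For Homer2 it was Cdk14 (0.876), followed by Dlgap1 itself (0.869), and for Shank2 the RNA-binding protein gene Celf4 (0.839). For Dlg4 it was Cbx6 (0.958), and for Dlg2 the phosphatase subunit gene Ppp2r2a (0.910). Dlgap3 and Homer1 shared the same nearest gene, Camkk2, a kinase of the calcium and calmodulin pathway, at 0.905 and 0.882. The lowest of the 10 were those of Shank3 with Cdr1 (0.761), a locus with a known antisense transcript whose reads may be shared, and of Homer3 with Zbtb20 (0.755).

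Family relatives outside the 10 were followed as a count. All 6 (Dlg1, Dlg3, Dlg5, Dlgap2, Dlgap4 and Dlgap5) passed the filter on low counts, and none passed an adjusted p of 0.05 in any of the 4 comparisons in edgeR. At an unadjusted p below 0.05, none counted for genotype, line or the difference between lines, and 1 did for sex (Dlg3, -0.17, lower in males), against 4.62% of all genes. Without X424.C4 none of the 6 counted in any of the 4 comparisons. Their genotype differences had a median of -0.01. Dlgap4 was the most abundant, at 211.7 ± 32.4 CPM (SD, n = 16) in WT mice, and Dlgap5 the least, at 4.971 ± 2.2 CPM. In X424.C4, Dlg5 (45.69 CPM) lay above all other mice, whose highest was 23.77 CPM, and Dlg1 (41.03 CPM) and Dlg3 (84.75 CPM) lay below all of them on both scalings.

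A further 40 genes of the postsynaptic density (glutamate receptor subunits, kinases, adhesion molecules and small GTPase regulators) all passed the filter, and none passed an adjusted p of 0.05 in any comparison. For genotype, 2 of 40 had an unadjusted p below 0.05, both higher in CYFIP1 OE mice, against 4.3% of all genes. These were Magi3, a membrane-associated scaffold (log2 difference 0.44, SE 0.14, unadjusted p = 0.00445 in edgeR), and Iqsec1, an exchange factor for Arf6 (0.24, SE 0.11). Without X424.C4 they were at 0.48 and 0.15, and only Magi3 counted. With 5 surrogate variables 7 of 40 counted, 6 of them lower in CYFIP1 OE mice, against 5.7% of all genes. For line, 4 of 40 counted, against 3.31% of all genes, led by Grin2a, an NMDA receptor subunit (0.29, SE 0.10, higher in line 3), Camk2a (0.38) and Kalrn (0.32). Without X424.C4, 3 of 40 counted, and Camk2a, at 0.21 (p = 0.0589 in edgeR), no longer did. For the difference of genotype effects between lines, 6 of 40 counted, 5 of them above 0, against 8.1% of all genes, with Grm5 at 0.40, Itpr1 at 0.81 and Camk2b at 0.53 the first 3. These encode a metabotropic glutamate receptor and an inositol trisphosphate receptor, both Homer partners, and a calcium-activated kinase. Without X424.C4, 5 of 40 counted, and all 5 were above 0. None of the 40 counted with age in the model or without the mice aged 77 days, and 1 did, below 0, with 5 surrogate variables. For sex, 1 of 40 counted, against 4.62% of all genes. This was Lrrtm1, an adhesion molecule (-0.25, lower in males), followed by Itpr1 (-0.32) and Nlgn1 (-0.12). Without X424.C4 none of the 40 counted for sex, with Lrrtm1 at -0.23 (p = 0.0618 in edgeR).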

How the data were processed

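Gene expression was measured by QuantSeq 3′ sequencing of BLA punches from 31 mice, 1 library a mouse. The authors mapped reads with STAR to GRCm38 and deposited Salmon expected counts per Ensembl gene (26.4% of values not whole), which were rounded here. Symbols came from GENCODE. No per-sample column was left unused.

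Tests covered the 17428 genes that reached 10 reads in 20% of mice or more, with edgeR 4.0.16 in R 4.3.3 (TMM, quasi-likelihood, terms sex, line and genotype, Benjamini-Hochberg over all tested genes). SEs were derived from the F statistic, and intervals are 95%. The sequencing principal components of the study's model were not used. The study's methods removed libraries with a low connectivity Z-score. Here X424.C4 was kept, and results are also given without it. Alternatives were DESeq2 1.42.0, limma-voom 3.58.1, 5 surrogate variables (sva 3.50.0), other scaling and filters, an age term, and subsets of mice. Only the fits by edgeR, DESeq2 and limma-voom were tried on simulated counts with known changes, for genotype and for genotype by line. Correlations used log2 CPM (prior count 2) and 100000 resamples (scipy 1.17.1).

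The rule for named genes took all 10 scaffold genes, their relatives by counts and levels, the 3 other postsynaptic genes with the smallest p in each comparison (or up to 6 called), Cyfip1, the nearest gene of each member, and marker lists by ranges. One gene that this rule takes is not reported here. The members and lists were chosen with earlier results of these data known. The hippocampal and choroid plexus lists, the fits without name group X424 (the one with name group as a block included) and the fit of CYFIP1 OE mice alone without X424.C4 were added after the data were seen.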

Additional observations from a re-analysis of the deposited data

Results flagged for a closer look

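In 40 sets of mice (10 genes in the 4 genotype and line groups of 7 or 8 mice), 1 mouse stood far from the rest in 7. The cutoff assumes normally distributed values, while CPM were used untransformed, and the 40 sets share mice. The count of 7 is therefore a description and was not set against chance or against other genes. In each the mouse was the highest of its group, and the value given is its gap to the nearest other mouse as a share of the whole range. X424.C4 did so among CYFIP1 OE mice of line 3 for Shank1 (0.842, 347.8 against 96.61 CPM) and Homer3 (0.868, 46.41 against 10.18 CPM). X424.C2 did so among WT mice of line 3 for Homer2 (0.630, 100.8 against 59.69 CPM). X433A.C1 did so for Homer3 (0.680, 13.78 against 6.966 CPM) and X433A.D1 for Homer1 (0.580, 181.7 against 120.4 CPM) among CYFIP1 OE mice of line 1. X429.A4 did so for Shank3 (0.655, 12.9 against 7.237 CPM) and X426.B3 for Dlg4 (0.683, 345.4 against 215.3 CPM) among WT mice of line 1. No genotype difference differed between lines at an adjusted p of 0.05 in edgeR.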

How the results depend on the processing

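Of 450 values of the 10 genes under alternatives in the 4 comparisons, 373 kept the sign of the value reported, 77 had the other sign, and 0 had an adjusted p below 0.05 with edgeR, DESeq2 or limma-voom. At an unadjusted p below 0.05, counts of the 10 genes ran from 0 to 4. The count was 4 for genotype by line without X424.C4, where 10.4% of all genes were below 0.05. It was also 4 for genotype by line without the filter on low counts, where 3123 of 32936 genes were. The cause of the turned signs was not tested. Values with the other sign follow, as log2 differences by setting.

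With 5 surrogate variables, the genotype difference was -0.24 in Shank1, -0.062 in Dlg2, -0.056 in Dlg4, -0.11 in Dlgap3 and -0.13 in Homer1. That of Shank1 had an unadjusted p of 0.00947 and an adjusted p of 0.731 in edgeR. The line difference was -0.026 in Shank1, -0.017 in Shank3 and -0.025 in Dlg4. The sex difference was -0.12 in Shank1, 0.024 in Dlgap3, 0.019 in Homer1 and -0.0090 in Homer3. The genotype by line term (line 3 minus line 1) was 0.14 in Shank2, -0.083 in Dlg2, 0.22 in Dlgap1 and 0.12 in Homer2. With those variables 0 of the 10 had an unadjusted p below 0.05 in edgeR, where 3.21% of all genes did. In the reported fit 3 of the 10 did, where 8.1% of all genes did.

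Without X424.C4, genotype was -0.21 in Shank1, -0.014 in Homer2 and -0.245 in Homer3, line was -0.042 in Shank1, sex was -0.077 in Shank1 and -0.042 in Homer3, and genotype by line was -0.39 in Homer3. Without name group X424, genotype was -0.12 in Shank1, -0.0095 in Dlg2, -0.0057 in Dlg4, 0.086 in Dlgap1, -0.025 in Dlgap3 and -0.0061 in Homer1, and line was -0.13 in Shank1, 0.050 in Dlgap3 and -0.049 in Homer3. With limma-voom, genotype was -0.060 in Shank1. With age in the model, genotype was -0.023 in Shank1 and -0.015 in Homer3, and line was -0.072 in Shank3, -0.053 in Dlg2 and -0.053 in Dlg4. Without mice aged 77 days, genotype was -0.037 in Shank1 and -0.00012 in Homer3, and line was -0.024 in Shank3, -0.016 in Dlg2 and -0.014 in Dlg4.

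In line 1 alone, genotype was 0.087 in Shank2, -0.35 in Shank3, -0.085 in Dlg2, -0.13 in Dlg4, 0.44 in Dlgap1, -0.26 in Dlgap3, -0.17 in Homer1 and -0.024 in Homer3. In line 3 alone, genotype was -0.22 in Shank1 and -0.20 in Homer2. In line 3 without X424.C4, genotype was -0.75 in Shank1, -0.41 in Homer2 and -0.43 in Homer3. In line 3 without name group X424, genotype was -0.66 in Shank1 and -0.24 in Homer2. Among CYFIP1 OE mice, line was -0.13 in Shank1, -0.17 in Shank2, -0.36 in Dlgap1, 0.29 in Dlgap3 and -0.032 in Homer2. Among those without X424.C4, line was -0.59 in Shank1, -0.16 in Shank2, -0.37 in Dlgap1, 0.31 in Dlgap3 and -0.21 in Homer2. Among WT mice, line was -0.21 in Shank3, -0.064 in Dlg2, -0.13 in Dlg4 and -0.029 in Homer1. Among WT mice without name group X424, line was -0.079 in Shank3 and -0.31 in Homer3.

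Of 45 pairs of members, 20 passed over all mice, 4 in line 1 and 13 in line 3. Of 50 pairs with marker scores, 21 passed over all mice, 13 in line 1 and 11 in line 3. Homer3 with the striatal score had r = 0.196 in line 1 and 0.198 without name group X424, and Homer1 with Homer2 had r = 0.080 in line 1. X424.C4 lay outside the range of 8 genes against its name group and of 4 against CYFIP1 OE mice of line 3. With name group as a block in place of line, 0 of the 10 genes had an adjusted p below 0.05, over 18 mice and over the 14 without name group X424. In the latter, genotype was -0.49 in Shank1, -0.18 in Shank3 and -0.27 in Homer2. Low read numbers limit the precision of Shank3 and Homer3.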

Other observations

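Summed levels of the other marker lists were as follows over the 31 mice, with every listed gene tested except in the hippocampal list (6 of 8). Pan-neuronal markers (8 genes) ran from 2758 to 4305 CPM, GABAergic interneuron markers (8) from 342.1 to 832.4 CPM, with X424.C4 the lowest, and thalamic neuron markers (6) from 78.94 to 260.1 CPM. Oligodendrocyte and myelin markers (10) ran from 1170 to 9202 CPM, with X424.C1 the highest. Astrocyte markers (8) ran from 2358 to 2999 CPM, microglia markers (8) from 166.8 to 365 CPM and endothelial markers (6) from 109.5 to 172.2 CPM. Immediate early genes (9) ran from 94.43 to 512.1 CPM, with X424.C4 the lowest, hippocampal neuron markers from 52.59 to 570 CPM, and choroid plexus markers (8) from 19.75 to 8511 CPM. Of the choroid plexus list, Folr1, Aqp1, Otx2, Cldn2 and Calml4 were at 0 reads in at least 1 mouse, and of the hippocampal list C1ql2 and Neurod1.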
